A study of Rattus norvegicus with 11 samples.

Results

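White blood cells of 4 rats with collagen-induced arthritis (CIA) were sequenced at an early and a later state, so that each later sample was compared with the earlier sample of the same rat. The comparison used 8 of the 11 samples of the series, 4 per state, and 11219 of the 32623 genes, namely those with a mean FPKM (fragments per kilobase of transcript and library size) of at least 1 over the 8 samples. The animals were male Wistar rats of 7 weeks. CIA was induced with bovine type II collagen in incomplete Freund's adjuvant and boosted on day 7, and blood was drawn from the orbital vein from the following day on. The state of each sample was assigned by the study from a PCR measurement of Nampt, the gene of the rate-limiting enzyme of NAD salvage. Nampt++ samples were taken at about day 8 and Nampt+ samples at about day 14, each ± 2 days, so state, time after immunisation and the number of earlier bleeds cannot be told apart. All 8 samples carried the immunisation and the boost. The 3 remaining samples came from normal healthy rats and served as background.

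In this model an immune response against type II collagen precedes swelling of the paws, and blood leukocytes carry both the antigen-presenting and lymphocyte side of that response and the neutrophil and monocyte side. Mixed leukocyte RNA also carries what is left of reticulocytes and platelets after lysis of red cells. The proteasome degrades ubiquitin-tagged proteins and supplies peptides for MHC class I, and respiratory complex I oxidises NADH, a cofactor of the NAD pool that Nampt replenishes. Interleukin-1 alpha and TNF are inflammatory cytokines, and the kinase Syk relays signals of Fc and antigen receptors.

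The 8 libraries held 65340027 to 85449911 counted reads. Haemoglobin genes took 6.84, 37.3, 20.2 and 7.80% of the reads in Nampt++ (rats 1 to 4) and 25.9, 42.8, 18.4 and 14.8% in Nampt+. Levels are therefore given as scaled FPKM, the deposited FPKM divided by a TMM (trimmed mean of M values) factor, which was 0.578 for the Nampt+ sample of rat 2 and 0.874 to 1.21 for the others. Over all genes the median Nampt+ minus Nampt++ difference of rats 1 to 4 was 0.02, -0.46, 0.26 and -0.01 in log2(deposited FPKM + 1) and 0.07, 0.00, 0.01 and 0.01 in TMM-normalized log2 CPM. The deposited extraction protocol speaks of retinas. Of 15 retina genes looked up, 6 (Crx, Gngt1, Guca1a, Nrl, Rcvrn and Rpe65) had a count of 0 in all 8 samples and only Rom1 reached the mean FPKM of 1, whereas the markers of leukocytes were abundant. Nampt RNA itself did not follow the label in every rat. In rats 1 to 4 it stood at 42.4, 11.6, 36.9 and 25.6 scaled FPKM in Nampt++ and at 10.7, 24.8, 22.8 and 31.3 in Nampt+, against 20.4, 41.9 and 10.5 in the controls. The libraries labelled Nampt+ were thus lower in rats 1 and 3 and higher in rats 2 and 4, and the mean difference (29.1 ± 13.6 against 22.4 ± 8.61, SD, n = 4 each) was smaller than the spread between rats (log2 fold change -0.31, SE 0.52, unadjusted edgeR p above 0.05).

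Few of the 11219 genes separated the states. In edgeR's quasi-likelihood test with the rat as a block, 56 genes (0.499%) passed the thresholds used by the study, a ratio of group mean FPKM above 2 or below 0.5 with an unadjusted p under 0.05. Of these, 30 (0.267%) were higher and 26 (0.232%) lower in Nampt+. Of the 30, 13 had a mean FPKM under 1 in Nampt++, and of the 26, 5 had one in Nampt+, so these reached the filter through the state in which they were high. At an unadjusted p under 0.05 alone there were 166 genes (1.48%), of which 107 (0.954%) were higher and 59 (0.526%) lower. The states did not overlap in scaled FPKM for 200 genes (1.78%). No gene passed an adjusted p of 0.05 in the edgeR fit, in which the smallest Benjamini-Hochberg adjusted p was 0.99993. DESeq2 with the same block called 6 genes at that adjusted threshold, Syk, Il1a, Pole3, Slc30a1, AABR07025010 and Scly. Counted by direction alone, 508 genes (4.53%) were higher and 368 (3.28%) lower in all 4 rats, and by more than 1.5-fold in each rat 15 genes (0.134%) were higher and 4 (0.0357%) lower. Of the 508, 35 had a mean FPKM under 1 in Nampt++. Several of the 15 did too, among them Ms4a2 (mean scaled FPKM 0.546). Such genes reached the filter through Nampt+, so these counts are a description. Unadjusted p-values set the difference between the states against the spread left once the rat block is fitted, which is estimated in part from other genes. Words such as higher and lower describe the samples, since none of these genes passed the edgeR adjusted threshold.

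By the deposited numbering, the rats did not share 1 course. Between the samples, 918 genes were more than 2-fold higher and 1318 lower in Nampt+ in rat 1, 1347 and 780 in rat 2, 336 and 809 in rat 3, and 703 and 525 in rat 4. Across the tested genes, which are not independent replicates, the differences of rat 1 correlated with those of rat 2 at -0.43 and with those of rat 3 at 0.25, and the other pairs lay between -0.27 and 0.16. After each state's mean was removed, the Nampt+ sample of rat 1 correlated with its own Nampt++ sample at -0.21 and with the Nampt++ sample of rat 2 at 0.48. The Nampt+ sample of rat 2 correlated at -0.20 with its own and at 0.26 with the Nampt++ sample of rat 1. Rats 3 and 4 correlated with their own earlier samples at 0.19 and 0.12. The study describes both states as sampled from the same rats, but the numbers of rats 1 and 2 were thus not borne out by these correlations. Whether the numbers were crossed in 1 state was not tested. Every difference given for rat 1 or rat 2, and every count over all 4 rats, rests on the numbering as deposited. So does every fit with the rat as a block, including its fold changes, SEs, p-values and the genes counted or called by them. The values of the samples and the overlap of the states do not rest on the numbering.

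The gene list with the largest share of members lower in all 4 rats was the proteasome, with its subunits, assembly factors and activators. All 40 members were tested, 37 were fitted lower in Nampt+, and 11 (27.5%, against 3.28% of all genes) were lower in all 4 rats, with none higher in all 4. The median fitted log2 fold change was -0.20, against -0.00070 over all genes. In rats 1 to 4, 28, 24, 34 and 35 of the 40 members were lower. The mean of the list in log2 CPM was 5.51, 5.49, 5.49 and 5.48 in the Nampt++ samples and 5.31, 5.41, 5.29 and 5.21 in the Nampt+ samples, so the states did not overlap, and the controls lay at 5.27, 5.43 and 5.39. The differences were small, at -0.20, -0.09, -0.20 and -0.26. On deposited FPKM, where the median of all genes shifted, the list differed by -0.24, -0.64, 0.08 and -0.29, so its sign turned in rat 3. Relative to the median of all genes it was -0.26, -0.17, -0.18 and -0.28 there and -0.27, -0.09, -0.21 and -0.28 under TMM.

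The promoters of 3 proteasome genes lower in all 4 rats are shown because these members, with Psmd6, had the smallest p-values of the list. Each is the 250 bases before the RefSeq start in GRCr8, 5′ to 3′ on the gene's strand, at chr12:12210838-12211087 (minus strand) for Pomp, chr2:198584255-198584504 (plus) for Psma5 and chr10:83193537-83193786 (plus) for Psmb3. Capitals mark matches, on either strand, to CCAAT (the NF-Y box), CCGGAAG (the core bound by ETS factors) or TGACNNNGC (the antioxidant response element).
Pomp: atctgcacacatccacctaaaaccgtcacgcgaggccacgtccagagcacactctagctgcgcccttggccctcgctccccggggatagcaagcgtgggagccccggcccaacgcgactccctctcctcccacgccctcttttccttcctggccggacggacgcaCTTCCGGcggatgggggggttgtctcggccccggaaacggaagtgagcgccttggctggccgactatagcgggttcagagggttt
Psma5: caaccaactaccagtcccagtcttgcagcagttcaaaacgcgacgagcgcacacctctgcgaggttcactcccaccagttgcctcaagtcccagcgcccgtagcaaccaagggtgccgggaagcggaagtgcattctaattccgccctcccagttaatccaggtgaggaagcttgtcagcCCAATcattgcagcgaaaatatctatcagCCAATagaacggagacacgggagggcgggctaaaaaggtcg
Psmb3: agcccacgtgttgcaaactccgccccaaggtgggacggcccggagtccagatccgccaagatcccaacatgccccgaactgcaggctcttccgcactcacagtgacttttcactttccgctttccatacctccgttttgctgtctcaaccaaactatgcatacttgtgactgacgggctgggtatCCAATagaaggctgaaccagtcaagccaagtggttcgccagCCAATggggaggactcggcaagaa
The Pomp window held 1 CCGGAAG match on its reverse strand, and those of Psma5 and Psmb3 held 2 CCAAT matches each. CCGGAAG stood in 12 of 36 proteasome promoters found in the RefSeq table (33.3%), against 7.27% of all 33469 promoters of the same length, and CCAAT in 18 of 36 (50.0%), against 34.0%. TGACNNNGC stood in 7 of 36 (19.4%), against 10.1%. Among the 9 matched promoters of proteasome genes lower in all 4 rats, 3 held CCGGAAG (33.3%), 4 held CCAAT (44.4%) and 1 held TGACNNNGC (11.1%). These matches describe the letters and no binding was measured.

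Among the members, Psmd6, a lid subunit of the 19S cap, stood at 25.2, 23.8, 22.6 and 23.8 scaled FPKM in Nampt++ rats 1 to 4 and at 20.9, 18.9, 18.1 and 18.9 in Nampt+. The states did not overlap, and the difference in log2 CPM was nearly the same in each rat (-0.27, -0.33, -0.31 and -0.33). The fitted log2 fold change was -0.31 (SE 0.15, unadjusted edgeR p above 0.05). Psmb3, a beta-ring subunit of the 20S core, was at 82.2, 96.1, 90.0 and 79.0 in Nampt++ and at 65, 72.3, 73.1 and 65.8 in Nampt+, again without overlap (log2 fold change -0.33, SE 0.15, unadjusted edgeR p above 0.05). Psma5, an alpha-ring subunit, was at 54.9, 43.4, 35.8 and 40.5 against 39.5, 32.9, 33.7 and 30.0, lower in every rat while the states overlapped. The other members lower in all 4 rats were Psma6, Psma7, Psmb1, Psmb4 and Psmb6 of the core, Psmd2 of the cap and the assembly factor Psmg3.

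Pomp, the chaperone that completes assembly of the core (chr12:8746855-8759599, minus strand, in the coordinates of the file, whose build is not given in the sources used here), was the only member with an unadjusted p under 0.05. It was at 36.7, 41.3, 28.6 and 39.5 scaled FPKM in Nampt++ and at 20.6, 25.9, 21.3 and 11.0 in Nampt+, with no overlap (36.5 ± 5.62 against 19.7 ± 6.28, SD, n = 4 each, log2 fold change -0.94, SE 0.28, unadjusted edgeR p under 0.05). The controls were at 13.7, 18.4 and 18.9. A near-identical gene in the file, LOC100911238, can share its reads. Summed over both genes, the level was 98.8, 97.4, 105 and 97.4 in Nampt++ and 76.7, 100.2, 78.4 and 76.7 in Nampt+, lower in 3 of 4 rats, and the call was lost (log2 fold change -0.31, SE 0.17, unadjusted edgeR p above 0.05).

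**Figure D1:**
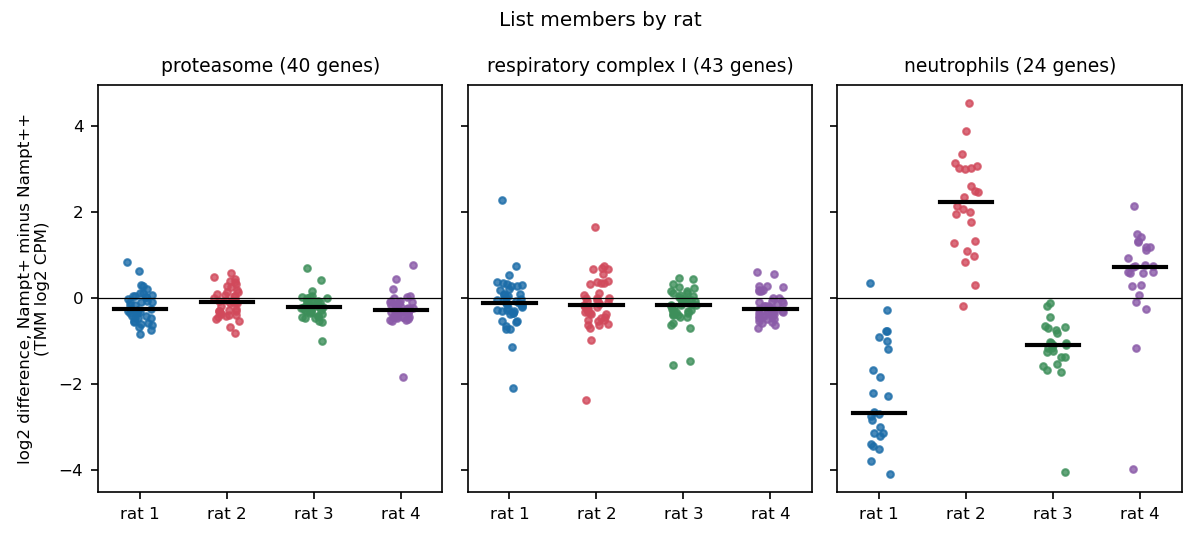
Difference in TMM-normalized log2 CPM, Nampt+ minus Nampt++, of each member of 3 gene lists (dots) in each of the 4 rats, with the list median as a bar. The medians of the proteasome and complex I lie a little below 0 in every rat, with 24 to 35 of 40 and 27 to 34 of 43 members lower, whereas 23 and 24 of 24 neutrophil markers lie below 0 in rats 1 and 3 and 1 in rat 2.

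Respiratory complex I behaved similarly. Of 43 tested genes of its subunits and assembly factors, 33 were fitted lower in Nampt+. In all 4 rats 11 (25.6%, against 3.28% of all genes) were lower and none was higher. The list mean in log2 CPM differed by -0.11, -0.12, -0.19 and -0.19 in rats 1 to 4, and its levels overlapped between the states by a narrow margin (4.41 to 4.56 in Nampt++, 4.21 to 4.44 in Nampt+, 4.30 to 4.39 in the controls). Upper quartile normalization turned rat 1 to 0.07, with 5 of 43 members (11.6%, against 2.58% of all genes) lower in all 4 rats. Deposited FPKM turned rat 3 to 0.08. Relative to the median of all genes the list stayed below 0 in every rat under both, at -0.17, -0.12, -0.20 and -0.21 with the upper quartile and -0.19, -0.15, -0.18 and -0.21 on deposited FPKM. Ndufa2 was at 45.3, 49.2, 47.3 and 49.0 scaled FPKM in Nampt++ and at 39.1, 37.7, 35.8 and 32.8 in Nampt+, with no overlap (log2 fold change -0.39, SE 0.16, unadjusted edgeR p under 0.05). Ndufb6 was at 27.2, 30.6, 29.0 and 27.9 against 24.6, 19.7, 21.9 and 18.0, also without overlap (log2 fold change -0.45, SE 0.18, unadjusted edgeR p under 0.05). These were the only members with an unadjusted p under 0.05 and both encode accessory subunits. Ndufb7 was at 43.4, 38.8, 42.8 and 40.3 against 35.0, 35.5, 31.4 and 31.8, without overlap. The genes of complexes III to V were less uniform, with list differences of -0.02, 0.02, -0.26 and -0.24. Of these 37 genes, 4 (10.8%, against 3.28% of all genes) were lower in all 4 rats.

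Among single genes, the cytokine and signalling genes Syk, Il1a, Thbs1 and Tnf were lower in Nampt+ in every rat, and of these Syk, Il1a and Thbs1 had no overlap between the states. Syk (chr17:12614311-12669573, minus strand) was at 17.9, 45.5, 51.8 and 41.3 scaled FPKM in Nampt++ and at 9.75, 11.0, 12.4 and 15.8 in Nampt+. All Nampt+ samples lay below the lowest Nampt++ sample, which was that of rat 1. The mean was 39.1 ± 14.8 against 12.3 ± 2.63 (SD, n = 4 each), a log2 fold change of -1.59 (SE 0.27, unadjusted edgeR p under 0.05, DESeq2 Benjamini-Hochberg adjusted p = 0.000457). The controls spanned both ranges at 43.8, 53.0 and 12.9. Il1a (chr3:121825412-121836086, minus strand) was at 5.59, 9.95, 8.23 and 9.45 in Nampt++ and at 2.96, 4.19, 4.13 and 2.96 in Nampt+, a log2 fold change of -1.21 (SE 0.23, unadjusted edgeR p under 0.05). Its controls were at 2.57, 8.24 and 3.13.

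Thbs1, the gene of thrombospondin 1, a matrix glycoprotein carried by platelets and monocytes, was at 18.4, 24.4, 63.7 and 54.9 scaled FPKM in Nampt++ and at 15.1, 13.1, 11.8 and 17.5 in Nampt+ (log2 fold change -1.31, SE 0.38, unadjusted edgeR p under 0.05). The gap was narrow in rat 1 and wide in rats 3 and 4. The controls were at 7.73, 112.5 and 9.24, so 1 of them lay above every CIA sample and the others below. Platelet markers as a list differed by 0.44, 0.51, -1.33 and -0.78 and monocyte markers by 0.37, -0.25, -0.56 and -0.45 in the same rats, with 24 monocyte and 21 platelet genes tested. Their part in the Thbs1 difference was not tested. In these bulk samples, fewer cells of a type and less RNA per cell cannot be told apart. Tnf was at 107, 33.7, 25.0 and 37.3 in Nampt++ and at 38.2, 20.3, 19.0 and 28.6 in Nampt+ (log2 fold change -0.75, SE 0.24, unadjusted edgeR p under 0.05). The states overlapped although each rat was lower. Added to the near-identical LOC103694380, the level went from 199, 68.3, 60.6 and 59.0 to 77.3, 34.0, 33.3 and 50.5, lower in 4 of 4 rats (log2 fold change -0.86, SE 0.24, unadjusted edgeR p under 0.05).

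The lists to which these genes belong did not follow them. In the interleukin-1 family and inflammasome list, Il1a was the only 1 of 19 tested members (5.26%, against 3.28% of all genes) lower in all 4 rats. That list differed by -1.42, 1.14, -0.77 and -0.13. In the list of TNF and its receptors only Tnf of 17 members (5.88%) was lower in all 4 rats, and the list differed by -1.01, 0.78, -0.63 and -0.44. In the Syk and ITAM signalling list only Syk of 23 (4.35%) was, with list differences of -0.83, 0.76, -0.58 and 0.08. Il1r1, the signalling receptor of interleukin-1, was at 8.73, 0.130, 5.11 and 4.50 scaled FPKM in Nampt++ and at 0.267, 1.24, 0.720 and 1.57 in Nampt+. It was lower in rats 1, 3 and 4 and higher in rat 2.

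**Figure D2:**
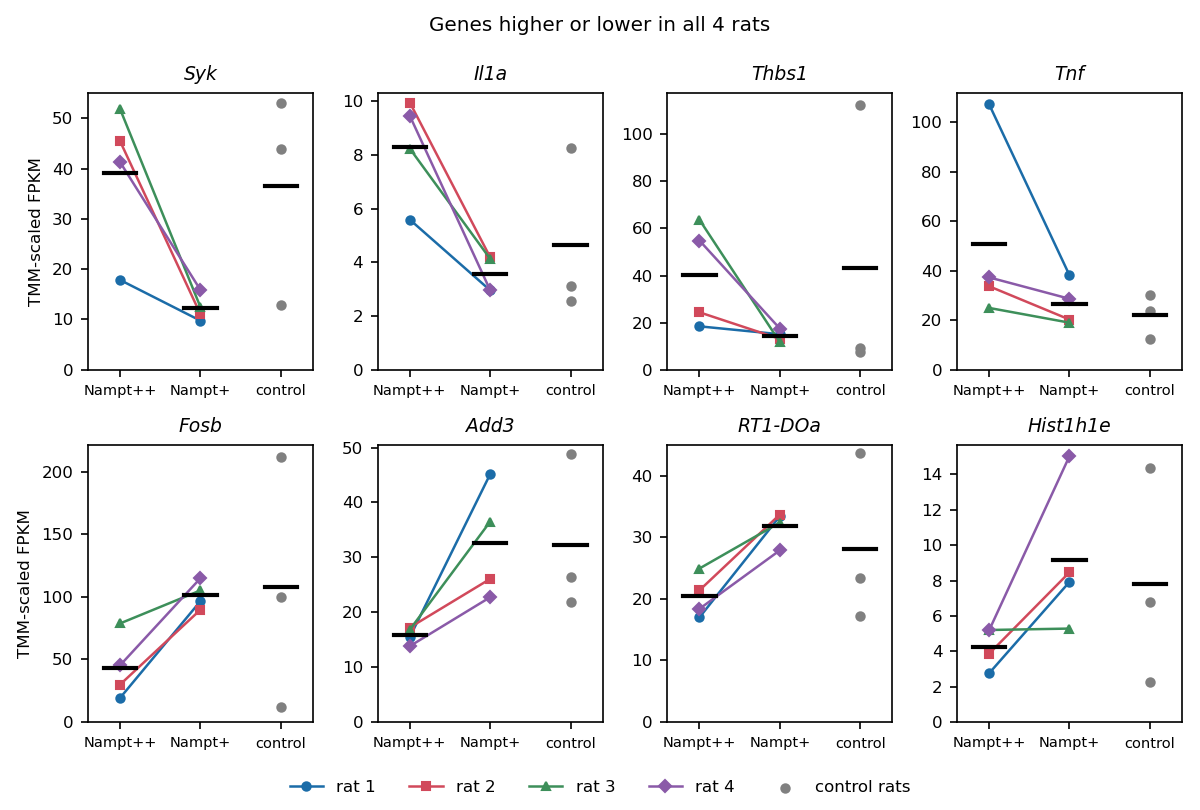
Scaled FPKM of 8 genes in the Nampt++ and Nampt+ samples, joined by rat, and in the 3 controls (grey), with group means as bars and axes starting at 0. The upper 4 genes are lower and the lower 4 higher in Nampt+ in each rat. For every gene shown except Thbs1, the controls reach into the range of at least 1 state. The Thbs1 controls, at 7.73, 112.5 and 9.24, lie outside both.

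Other genes lower in all 4 rats had diverse functions. Dusp6, a phosphatase of the kinase ERK, was at 14.9, 13.2, 22.4 and 24.5 in Nampt++ and at 11.5, 10.5, 10.1 and 13.5 in Nampt+ (log2 fold change -0.68, SE 0.20, unadjusted edgeR p under 0.05). Ctsl, a lysosomal cysteine protease, was at 33.1, 43.2, 69.3 and 82.1 against 31.5, 31.3, 33.7 and 25.9 (log2 fold change -0.81, SE 0.30, unadjusted edgeR p under 0.05). For Ctsl the difference was close to 0 in rat 1 (-0.08) and turned to higher there under upper quartile normalization. Slc30a1, a zinc exporter, was more uniform, at 11.7, 7.99, 9.98 and 8.28 against 6.41, 4.52, 6.09 and 5.17 without overlap, and its log2 difference lay between -0.87 and -0.68 in each rat (log2 fold change -0.77, SE 0.16, unadjusted edgeR p under 0.05). The gene named Pole3 in the file, after a histone-fold subunit of DNA polymerase epsilon, was at 7.03, 6.23, 5.91 and 5.34 against 3.58, 2.34, 2.71 and 2.18, without overlap. Its locus there is short (chr7:118816218-118816655). Whether it is a copy that shares reads with another gene was not tested. Plagl2, a zinc finger transcription factor, was at 10.9, 14.1, 14.7 and 22.4 against 9.06, 9.16, 9.37 and 11.2 (log2 fold change -0.63, SE 0.19, unadjusted edgeR p under 0.05). Together with Syk and Il1a, Slc30a1 and Pole3 were the 4 genes more than 1.5-fold lower in each rat.

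The lysosome and its proton pump gave an intermediate picture. Of 42 genes tested, 37 were fitted lower and 6 (14.3%, against 3.28% of all genes) were lower in all 4 rats, with 1 higher (Gaa, acid alpha-glucosidase). The list differed by -0.56, 0.28, -0.50 and -0.15, so rat 2 went the opposite way. On deposited FPKM it was lower in all 4 rats, at -0.53, -0.24, -0.21 and -0.20, with 12 members (28.6%, against 4.94% of all genes) lower in all 4, but relative to the median of all genes rat 2 was 0.23 higher there too. With the upper quartile 3 members (7.14%, against 2.58% of all genes) were lower in all 4. Among the members lower in all 4 rats were Ctsl, the pump subunit Atp6v1a, the ganglioside activator Gm2a, the sialidase Neu1 and the ion channel Mcoln1.

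**Figure D3:**
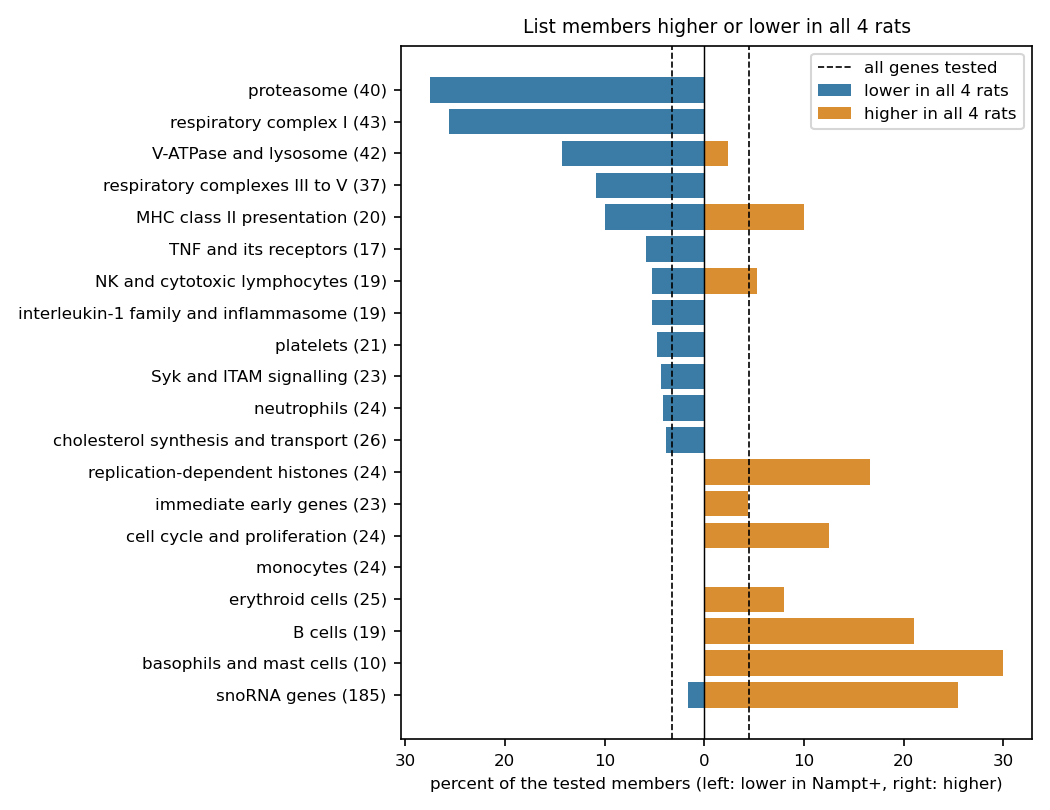
Percent of the tested members of each gene list (number tested in brackets) that were lower (left, blue) or higher (right, orange) in Nampt+ in all 4 rats, with the shares of all genes tested as dashed lines (3.28% and 4.53%). The proteasome and complex I reach 27.5% and 25.6% on the lower side, and snoRNA genes, a type chosen after its values were seen, 25.4% on the higher side.

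Among genes higher in Nampt+, Fosb, a subunit of the AP-1 transcription factor, had the largest fitted fold change by the rule used. It was at 19.3, 29.9, 78.8 and 45.3 scaled FPKM in Nampt++ and at 96.7, 89.8, 105 and 115 in Nampt+, with no overlap (43.3 ± 26 against 102 ± 10.9, SD, n = 4 each, log2 fold change 1.42, SE 0.35, unadjusted edgeR p under 0.05). The controls ran from 12.1 to 212, wider than both states. Of the 23 immediate early genes tested, Fosb was the only 1 (4.35%, against 4.53% of all genes) higher in all 4 rats. Fos was at 94.1, 66.7, 122 and 87.3 against 256, 143, 73.5 and 173, lower in rat 3. Add3, the membrane skeleton protein gamma-adducin, was at 15.4, 17.2, 16.8 and 13.8 in Nampt++ and at 45.2, 26.1, 36.5 and 22.7 in Nampt+, a log2 fold change of 1.00 (SE 0.23, unadjusted edgeR p under 0.05). The Nampt++ values lay close together and every Nampt+ value was above them. Scly, selenocysteine lyase, was at 2.51, 4.89, 2.19 and 2.13 against 4.65, 9.54, 3.84 and 3.55, and its log2 difference was between 0.73 and 0.97 in each rat (log2 fold change 0.85, SE 0.19, unadjusted edgeR p under 0.05).

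RT1-DOa, the alpha chain of the DO molecule that tunes peptide loading on MHC class II, was at 17, 21.4, 24.9 and 18.4 in Nampt++ and at 33.4, 33.7, 32.4 and 27.9 in Nampt+, with no overlap (log2 fold change 0.65, SE 0.17, unadjusted edgeR p under 0.05). Ciita, the master regulator of class II transcription, was at 5.15, 6.40, 4.56 and 4.32 against 9.42, 6.29, 7.03 and 10.2, higher in rats 1, 3 and 4 (log2 fold change 0.68, SE 0.24, unadjusted edgeR p under 0.05). The class II list as a whole was divided, with list differences of 0.45, -0.03, 0.32 and -0.29. In all 4 rats 2 of its 20 members were higher and 2 lower (10% each, against 4.53% and 3.28% of all genes). DO is expressed mainly by B cells. Of 19 B cell markers, 15 were fitted higher and 4 lower. In all 4 rats 4 (21.1%, against 4.53% of all genes) were higher, among them Fcer2, Blk and Bank1. Fcer2 was nearly level in rat 1 and Blk in rat 2 (0.01 each). Vpreb3 went the other way, lower in rats 2, 3 and 4 (log2 fold change -0.60, SE 0.29, unadjusted edgeR p above 0.05). The list differed by 0.26, -0.09, 0.18 and 0.25. On deposited FPKM, where 1.26% of all genes were higher in all 4 rats, none of the 19 markers was. Fcer2, the low-affinity IgE receptor CD23, was at 38.5, 34.7, 22 and 15.3 in Nampt++ and at 38.9, 41.9, 39.4 and 35.3 in Nampt+. Its Nampt+ values were alike, and the Nampt++ values of rats 2, 3 and 4 lay below all of them (log2 fold change 0.58, SE 0.25, unadjusted edgeR p above 0.05).

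Irs2 and Xpo7 were also higher in all 4 rats, and Kel was higher in rats 1, 2 and 4 and level in rat 3. Kel, a blood group antigen of red cells, was at 6.05, 69.7, 4.69 and 4.23 against 35.2, 126, 4.67 and 13.9, and its difference in rat 3 was 0.00 in log2 CPM. Kel ran beside the erythroid markers, of which 22 of 25 were fitted higher and whose list differed by 1.79, 0.82, -0.48 and 0.70, and the part of red cell RNA in it was not tested. Xpo7, a nuclear transport receptor, was at 8.39, 15.8, 6.01 and 7.48 against 12.3, 24.3, 9.07 and 10, between 0.42 and 0.62 higher in log2 CPM in each rat (log2 fold change 0.55, SE 0.15, unadjusted edgeR p under 0.05). Irs2, an insulin receptor substrate, was at 8.70, 7.33, 18.2 and 17.5 against 10.9, 12.2, 29.7 and 20. LOC103692829, a protein-coding gene without a common name, was at 12.5, 17.6, 9.70 and 8.43 against 47.1, 48.2, 10.7 and 22.3, and its controls reached 116. In rat 3 Xpo7 and Irs2 were higher while the erythroid list was lower, but Xpo7, like Kel and the erythroid list, was highest in rat 2 in both states. The part of red cell RNA in these genes was not tested either.

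Genes of dividing cells were higher mainly in rat 1. Of 24 cell cycle genes, 3 (12.5%, against 4.53% of all genes) were higher in all 4 rats and none was lower. The 3 include Tpx2, which passed the filter through Nampt+. At a mean FPKM of at least 10, 0 of 8 were higher in all 4 rats, against 3.84% of all genes. The list differed by 0.51, 0.11, 0.11 and -0.09. Cdca8, a subunit of the chromosomal passenger complex, was at 1.08, 2.41, 0.976 and 1.29 in Nampt++ and at 2.90, 5.17, 1.53 and 1.96 in Nampt+ (log2 fold change 0.94, SE 0.28, unadjusted edgeR p under 0.05). It was more than 1.5-fold higher in each rat. Ube2c and Tpx2, which act in mitotic exit and spindle assembly, were higher in all 4 rats with smaller differences in rats 3 and 4. Tpx2 had a mean of 0.885 scaled FPKM in Nampt++ and 1.58 in Nampt+. It reached the mean FPKM of 1 through the Nampt+ samples, so its difference is given as a description. Replication-dependent histone genes had 4 of 24 members (16.7%, against 4.53% of all genes) higher in all 4 rats, although their list differed by 0.78, 0.73, -0.43 and 0.57. At a mean FPKM of at least 10, 0 of 6 histone genes were. Hist1h1e, a linker histone, was at 2.75, 3.86, 5.20 and 5.18 against 7.92, 8.47, 5.28 and 15, with the groups apart by a narrow margin and rat 3 nearly level (log2 fold change 1.06, SE 0.34, unadjusted edgeR p under 0.05).

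Basophil and mast cell markers were low throughout and higher in Nampt+ mainly in rat 4. The summed scaled FPKM of the markers was 56.2, 37.4, 91.4 and 50.2 in Nampt++ and 49.6, 59.2, 104.6 and 201.5 in Nampt+. Of 16 markers in the file, 10 reached the mean FPKM of 1 and Tpsb2 had no counts. Among the 10, Ms4a2, Fcer1a and Mcpt8l2 (30%, against 4.53% of all genes) were higher in all 4 rats. That share includes Ms4a2, which passed the filter through Nampt+, and is a description. In rats 1 to 4, 5, 2, 4 and 1 of the 10 were lower, and the list differed by 0.17, 0.40, 0.04 and 2.17. Ms4a2, the beta chain of the high-affinity IgE receptor, was at 0.604, 0.295, 0.929 and 0.357 against 1.09, 0.728, 2.18 and 4.36. It reached the mean FPKM of 1 through the Nampt+ samples, since every Nampt++ value was below 1, so its difference is given as a description. The controls reached 1.84, so rats 3 and 4 in Nampt+ lay above all of them. Mcpt8l2, a granule protease, was at 3.16, 5.43, 6.72 and 3.21 against 5.39, 8.66, 8.44 and 23.2.

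**Figure D4:**
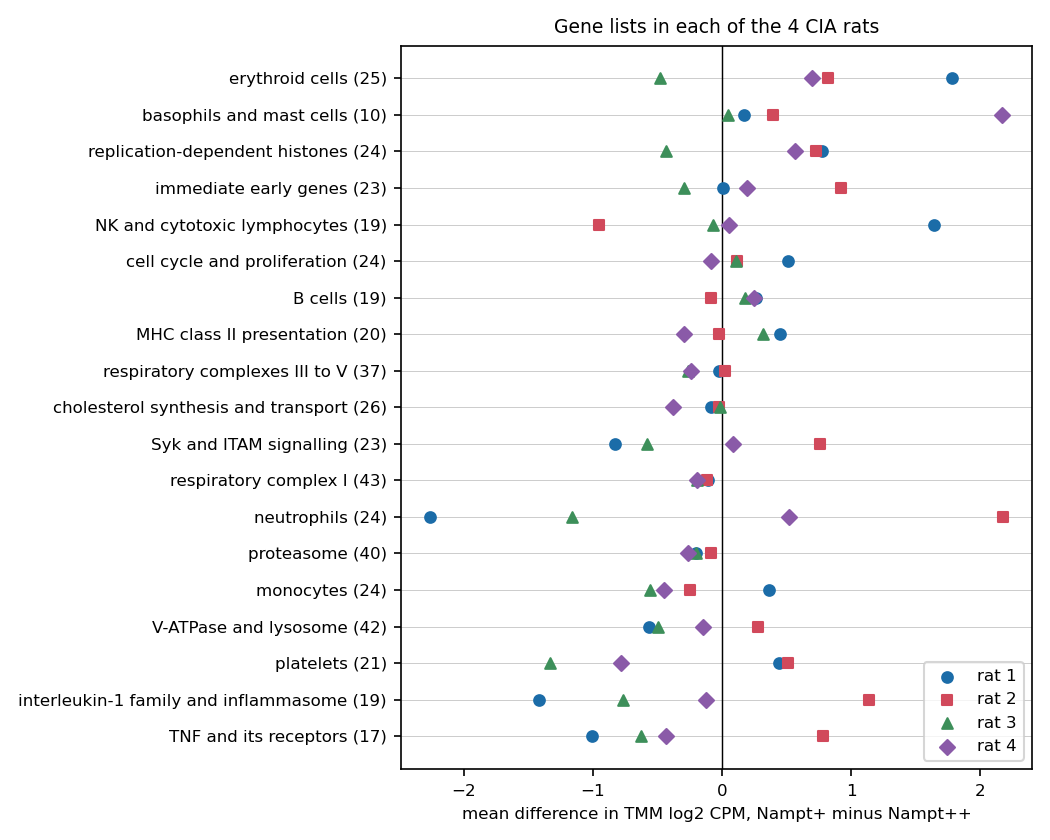
Mean Nampt+ minus Nampt++ difference in TMM-normalized log2 CPM over the tested members (number in brackets) of 19 gene lists, with each of the 4 rats as its own symbol. The proteasome and complex I have all 4 symbols just below 0, while neutrophils span from -2.26 in rat 1 to 2.18 in rat 2.

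Among the lists, neutrophil markers had the largest mean differences in rats 1 and 2, and these ran in opposite directions by the deposited numbering. Of 24 neutrophil markers, 23 were lower in rat 1, 1 in rat 2, 24 in rat 3 and 4 in rat 4, and the list differed by -2.26, 2.18, -1.16 and 0.52. The summed scaled FPKM of the markers was 50600, 10600, 28420 and 17020 in Nampt++ and 9268, 41830, 11850 and 26140 in Nampt+, so that rat 1 was highest in Nampt++ and rat 2 in Nampt+. Mmp9, a gelatinase stored in neutrophil granules, was at 142, 13.2, 94.3 and 80.8 against 16.2, 193, 28.5 and 36.0. Lcn2, an iron-chelator binding protein, was at 25.6, 6.45, 103 and 185 against 7.95, 149, 6.15 and 11.7. In rat 4 both were lower, against the list, of which 20 of 24 markers were higher there. Nampt was lower in rats 1 and 3 and higher in rats 2 and 4, the same signs as the neutrophil list, and the part of neutrophil content in it was not tested. Fcnb, the gene of ficolin B, was the only neutrophil marker lower in all 4 rats, at 251, 195, 231 and 293 against 148, 172, 169 and 246.

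Of 62 lists, 32 were lower in rats 1 and 3 and higher in rat 2, and 30 of these were among the 50 function lists. They included the NF-kB list, which differed by -0.91, 1.07, -0.64 and -0.42, and the lists of interleukin-1 and TNF above. Natural killer and cytotoxic lymphocyte markers went the other way in rats 1 and 2, at 1.64 and -0.95, with -0.07 and 0.06 in rats 3 and 4. The 36 interferon-stimulated genes tested differed by -0.83, 0.75, -0.17 and 0.20, and none was higher or lower in all 4 rats. T cell markers, 27 in number, differed by 0.49, -0.58, 0.57 and 0.21, opposite in sign to the neutrophil list in rats 1 to 3. The 75 cytosolic ribosomal protein genes differed by 0.29, -0.33, 0.07 and -0.31, so that not every list of highly expressed housekeeping genes was lower in all rats. By contrast 3 lists were lower in all 4 rats, the proteasome, complex I and cholesterol synthesis and transport. The cholesterol list differed by -0.09, -0.02, -0.01 and -0.38 with 1 of 26 members lower in all 4 rats (3.85%, against 3.28% of all genes), so it did not stand out from the background. The lists whose mean was higher in all 4 rats were basophils and mast cells, by only 0.04 in rat 3, and, with Rom1 as its only tested gene, retina.

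**Figure D5:**
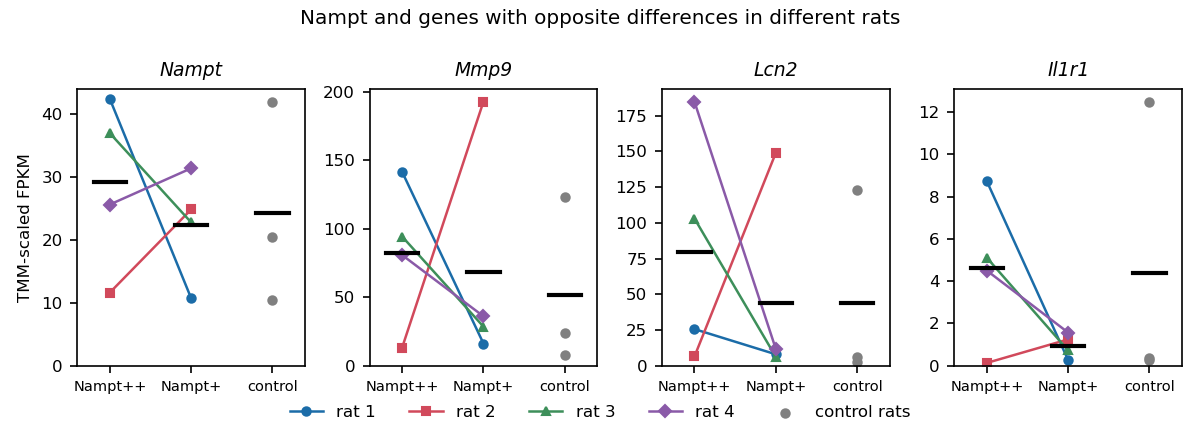
Scaled FPKM of Nampt, Mmp9, Lcn2 and Il1r1 in the Nampt++ and Nampt+ samples, joined by rat, and in the 3 controls (grey), with group means as bars and axes starting at 0. The lines of rat 2 rise for all 4 genes while those of rats 1 and 3 fall.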

How the data were processed

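Per the labels and the methods of the study, total leukocyte RNA was sequenced as poly(A) libraries. The submitters' processing notes name cutadapt 1.9, HISAT2 2.0.4 and StringTie 1.3.4; the genome build and the counting tool were not given in the sources used here. The authors deposited raw counts per gene and FPKM for each sample. Deposited FPKM were used for the filter (mean of at least 1), the ratios and, divided by TMM factors over 11 samples, the displayed levels.

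The counts of the 8 CIA samples were fitted in edgeR 4.0.16 (R 4.3.3) with TMM, rat and state, by the quasi-likelihood test with Benjamini-Hochberg adjustment. Differences per rat are in log2 CPM with a prior count of 2. The procedure was checked on simulated counts. Samples were paired by rat number, since the study describes both states as sampled from the same rats; the deviations of same-numbered samples from the group means correlated at -0.21, -0.20, 0.19 and 0.12.

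Genes named in detail were the 10 highest and 10 lowest fold changes among genes of mean FPKM of at least 10, an unadjusted p under 0.05 and 1 direction in all 4 rats by both scales, up to 4 members of each described list by p, and Nampt. Slc30a1, Pole3 and Scly were outside this rule and were described, after their values were seen, as over 1.5-fold lower or higher in each rat and called by DESeq2; other members are named by their count. Where a symbol stood on several genes, the row with the highest mean FPKM was used. Members and lists were chosen with earlier results of these data known. A sign-flip permutation of 4 differences cannot go below 0.125 and was not used. Alternatives were no block, DESeq2 1.42.0, limma 3.58.1 on log2(FPKM + 1), other normalizations and filters, and leaving out each rat. Some genes that met the naming rule are not reported here.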

Additional observations from a re-analysis of the deposited data

Results flagged for a closer look

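In 210 groups of 4 samples checked, 7 (3.33%) held a sample far from the other 3 by Dixon's criterion. Chance flags about 1 group in 20. In the Nampt++ sample of rat 1, Cox5b stood at 220.7 scaled FPKM (others 186.2 to 191.2). In the Nampt++ sample of rat 2, Kel stood at 69.74 (others 4.23 to 6.05), and Tnfaip2, low, at 5.229 (others 16.69 to 20.83). In the Nampt++ sample of rat 4, the platelet list had a mean log2 CPM of 6.567 (others 6.276 to 6.301). In the Nampt+ sample of rat 4, Cst7 stood at 17.27 (others 13.11 to 13.43), Plagl2 at 11.17 (others 9.06 to 9.37) and Vpreb3, low, at 6.061 (others 15.57 to 18.07).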

How the results depend on the processing

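The 56 genes past the thresholds became 106 without the FPKM filter, 14 at a mean FPKM of at least 10, 109 with DESeq2, 114 with limma and 72 without the replicate block (35 higher, 37 lower, 39 shared with the 56), and 37 to 261 when a rat was left out (125 without rat 1, 261 without rat 2, 65 without rat 3, 37 without rat 4). The share higher among them was 53.6%, against 45.3% without the filter, 43.9% with limma, 64.7% with the fitted fold, 32.8% without rat 1, 36.8% without rat 2 and 72.3% without rat 3. At an adjusted p under 0.05, DESeq2 called 6 genes and edgeR under every other setting and limma called 0, with 256 genes at an unadjusted p under 0.05 without the block, 187 with limma and 71 to 1092 when a rat was left out. Genes higher in all rats (508) numbered 189 at a mean FPKM of at least 10, 141 on deposited FPKM and 861 to 2130 over 3 rats; genes lower (368) numbered 130, 554 and 770 to 1855, and 654 without the filter. The 2 lists higher in all rats became 0 on deposited FPKM with either pseudocount and 3 to 7 over 3 rats; the 3 lists lower became 1 with the upper quartile, 7 or 8 on deposited FPKM with a pseudocount of 1 or 0.1, and 4 to 23 over 3 rats. Fewer rats make a shared direction easier to reach. With a rat left out, the log2 fold change of Hp ran from -1.04 to 0.18 and that of Nampt from -0.805 to 0.23, both reversed without rat 1. Of 89 genes given by the naming rule, 16 lost an unadjusted p under 0.05 without the block and 10 gained it, and 17, 14, 18 and 19 lost it without rats 1, 2, 3 and 4, Thbs1 among them without rat 4. The causes were not tested.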

Other observations

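Small nucleolar RNA (snoRNA) genes guide modification of ribosomal RNA and were looked at after their values were seen. Of 185 tested, 47 (25.4%, against 4.53% of all genes) were higher in Nampt+ in all 4 rats and 3 were lower, and 4 of the 47 had a mean FPKM under 1 in Nampt++, with median log2 CPM differences of 0.68, 0.10, 0.50 and 0.51 in rats 1 to 4. On deposited FPKM 24 (13%, against 1.26% of all genes) were higher in all 4 rats and the median of rat 2 was -0.35. With the upper quartile 43 were, with a median of -0.05 in rat 2. Small noncoding genes made up 11 of the 30 genes past the thresholds and higher (36.7%, against 3.24% of genes tested) and none of the 26 lower. Of the 30, 13 had a mean FPKM under 1 in Nampt++ and so reached the filter through Nampt+. Among these were snoRNA genes such as RF00280 and 1 gene named RF00420 (mean scaled FPKM 0.633 and 0.599), so this share is a description. As an example, RF00287, a snoRNA family name carried by 2 genes in the file, stood at 7.30, 8.99, 8.17 and 9.43 scaled FPKM in Nampt++ and at 20.7, 18.2, 17.2 and 20.2 in Nampt+, without overlap (log2 fold change 1.16, SE 0.33, unadjusted edgeR p under 0.05). Its controls were at 28.8, 16.8 and 11.5. snoRNA genes took 139, 119, 154 and 203 CPM in Nampt++, 228, 88.3, 282 and 283 in Nampt+, and 267, 123 and 228 in the controls. They are short and mostly lie within introns of other genes, the libraries were made from poly(A) RNA, and the part of RNA quality or of host gene reads was not tested.

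A stretch of chromosome 17 from 43734461 to 44794522, in the coordinates of the file, holds a histone cluster and was also chosen after its values were seen. Its bounds are those of the chromosome's outermost genes past the thresholds and higher, so its counts are a description. Of 20 tested genes there, 17 were fitted higher in Nampt+ (5596 of all 11219), 7 were higher in all 4 rats (4.53% of all genes) and none lower, with a median log2 fold change of 0.59. Of the 7, 3 had a mean FPKM under 1 in Nampt++ and so reached the filter through Nampt+. The 5 past the thresholds (0.267% of all genes) were Hist1h1e, Hist1h1d, AABR07027753, LOC684773 and 1 of several genes carrying the symbol LOC100912564, and 2 of the 5 had a mean FPKM under 1 in Nampt++. Btn2a2, a butyrophilin gene that lies among the histone genes, was also higher in all 4 rats, with a log2 fold change of 0.93 (SE 0.28, unadjusted edgeR p under 0.05). Reads of such near-identical histone genes can be split between copies, so values of single genes there are uncertain.

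AABR07025010, a protein-coding gene without a common name on chromosome 16, had the lowest fold change among genes named by the rule. It stood at 78.5, 15.7, 59.4 and 36.5 scaled FPKM in Nampt++ and at 5.398, 10.4, 16.4 and 6.50 in Nampt+ (log2 fold change -2.19, SE 0.55, unadjusted edgeR p under 0.05).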
